A study of Mus musculus with 6 samples.

Results

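The 10 genes described here are members of the circadian clock: Arntl, Clock, Per1, Per2, Per3, Cry1, Nr1d1, Nr1d2, Dbp and Tef. They were taken by symbol from the 31053 genes of the count tables, and each symbol was listed once. Their transcripts were counted in single cells of the stromal vascular fraction of inguinal white adipose tissue (iWAT) of mice, in 6 libraries.

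The molecular clock of mammalian cells is a transcriptional loop that takes about a day. The proteins of Arntl (also called BMAL1) and Clock bind E-box sequences and switch on the Per and Cry genes, whose proteins then block them. The same pair switches on Nr1d1 and Nr1d2, encoding REV-ERBα and REV-ERBβ, which bind ROR elements (ROREs) and repress Arntl, so that in most tissues Arntl mRNA peaks when Nr1d1 and Dbp mRNAs are low. Dbp and Tef encode PAR bZIP factors, which carry the rhythm to D-box sequences of output genes, and fat depots are among the tissues with a clock of their own.

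The mice were C57BL/6 males, young (9 weeks) or aged (57 weeks), and the study obtained its mice as C57BL/6JN or C57BL/6J from different sources, without stating which went into a library. All groups spent 3 weeks at 30 °C and then a final 2 weeks in which the thermoneutral (TN) mice stayed at 30 °C, the 3D cold mice spent the last 3 days at 6 °C and the 14D cold mice spent all 14 days at 6 °C. Live cells without CD45 were sorted and counted with 10x Genomics 3′ chemistry, in 1 library for each age and temperature. The methods name pooling of mice as an exception and mention none for these libraries, without stating how many mice each library holds. The light cycle and the hour at which tissue was taken are not given in the sources used here. Neither temperature group nor age can therefore be told apart from time of day for these genes. An age difference within a temperature also has no replicate.

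After a filter on cell quality, 8030 to 10880 cells were kept per library, and the libraries held 52068837 to 88508349 unique molecular identifiers (UMIs, 1 per captured transcript). The aged 14D cold library stood apart, with a median of 2588 UMIs per barcode compared with 6232 to 8954 in the other 5, and results are given without it where they change. Of 67565 distinct barcodes, 524 occurred in more than 1 library. Cells were assigned from markers to 5 classes named after the populations of the study, Dpp4+ fibroblasts (2237 to 5253 cells per library), Icam1+ preadipocytes (2723 to 4181), Cd142+ fibroblasts (231 to 470), endothelial cells (413 to 1303) and smooth muscle cells with pericytes (SMC/pericytes, 76 to 258). In these classes 10, 8, 7, 10 and 10 of the 10 markers of the class were higher than in the other classes. The same markers defined the classes, so this is a description and no check of them. With cells grouped by Leiden clusters instead, 25.9% (aged 3D cold) to 50.7% (young 14D cold) of the Cd142+ class had also been assigned to it by markers. That share was higher in each of the other classes. No clock gene was among the markers. Kept cells in none of the 5 classes numbered 3644 in aged 14D cold and 544 to 960 in the other libraries. In aged 14D cold they included 1969 fibroblasts of no class (median 1393 UMIs) and 1190 cells of no lineage (median 1031 UMIs). The class sums of that library thus leave out many of its shallow cells. UMIs were summed per library and class and are given as CPM, the UMIs of a gene scaled to a common total per library, with TMM scaling within a class.

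Promoter sequence of 9 of the 10 members was at hand, as RefSeq windows from 250 bases before to 50 bases after 14 annotated starts on GRCm38.p6. They were searched on both strands for the letters by which clock proteins act on one another: the E-box CACGTG, the D-boxes TTATGTAA and TTACGTAA, and the RORE. An E-box was in the windows of Cry1 and Tef and in 1 of the windows of Per1. A D-box was found in duplicate in the window of Per3, and a RORE was in 1 of the windows of Arntl. Across 32851 windows of the same length, 7.15% held this E-box, 1.06% a D-box and 0.384% a RORE. The stretches with a match are shown in the direction of the gene and with the motif in capitals.
Cry1, chr10:85185072-85185151, minus strand, E-box 60 bases before the start: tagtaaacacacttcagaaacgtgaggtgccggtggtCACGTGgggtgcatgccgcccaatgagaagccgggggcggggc
Per1, chr11:69098746-69098825, plus strand, E-box 166 bases before the start: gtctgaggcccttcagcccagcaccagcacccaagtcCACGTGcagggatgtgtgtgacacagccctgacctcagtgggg
Tef, first start, chr15:81802509-81802588, plus strand, E-box 127 bases before the start: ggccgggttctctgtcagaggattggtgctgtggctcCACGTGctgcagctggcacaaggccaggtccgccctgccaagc
Tef, other start, chr15:81811239-81811318, plus strand, E-box 138 bases before the start: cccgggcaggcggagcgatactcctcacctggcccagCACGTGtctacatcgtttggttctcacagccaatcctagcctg
Per3, chr4:151044827-151044906, minus strand, D-box 205 bases before the start: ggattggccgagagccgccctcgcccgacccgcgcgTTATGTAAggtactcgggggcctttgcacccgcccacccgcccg
Per3, chr4:151044780-151044859, minus strand, D-box 158 bases before the start: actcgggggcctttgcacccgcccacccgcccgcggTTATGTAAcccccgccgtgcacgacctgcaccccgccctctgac
Arntl, chr7:113207527-113207556, plus strand, RORE 26 bases after the start: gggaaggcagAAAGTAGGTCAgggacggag
The windows of Clock, Dbp, Nr1d1 and Nr1d2 held none of these letters, which says nothing of sites elsewhere in those genes, and Per2 had no window. A match is a description of the sequence and was not tested for binding.

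The question of the comparison across temperature was whether cold exposure moved these genes in each cell class. The 3D cold libraries of both ages stood apart from the other 4 in the same direction: Nr1d1, Nr1d2, Dbp and, in fewer classes, Tef were higher after 3 days of cold exposure, and the 14D cold values lay nearer to TN. Of 50 combinations of gene and class, both 3D cold libraries lay above all of the other 4 in 20, and below them in 5, of which 4 were Arntl. In edgeR's quasi-likelihood test of both temperature changes together, 17 of 48 combinations with enough counts passed an adjusted p of 0.05, all 17 of them higher in 3D cold than at TN. This test does not say which of the temperatures differ, and the members are not independent of one another, so their counts are a description.

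By class, 6 of 10 members passed in Dpp4+ fibroblasts, where 5.91% of all genes tested passed and 2.83% did so with a higher value in 3D cold. In Icam1+ preadipocytes 3 of 10 passed, against 3.98% of all genes and 1.78% in that direction. In Cd142+ fibroblasts 4 of 10 passed, against 3.73% and 1.85%. In endothelial cells 3 of 10 passed, against 1.28% and 0.912%, and in SMC/pericytes 1 of the 8 members tested, against 0.579% and 0.324%. The share of members that passed lay above the share of all genes in each class, and the genes that passed were Dbp in all 5 classes, Nr1d1 and Nr1d2 in 4 each, Tef in 2, and Per2 and Per3 in 1. Members that passed with a lower value in 3D cold numbered 0 in each class, against 3.08%, 2.21%, 1.88%, 0.363% and 0.255% of all genes, in the same order of classes. Both 3D cold libraries lay above the other 4 for 6, 3, 5, 3 and 3 members, against 7.08%, 8.84%, 7.11%, 7.01% and 7.61% of all genes, and below them for 0, 1, 2, 1 and 1, against 7.42%, 8.6%, 6.57%, 6.89% and 7.58%. The higher ones were Nr1d1 and Dbp in 5 classes, Nr1d2 in 4, Tef in 3 and Clock, Per2 and Per3 in 1, and the lower ones Arntl in 4 and Cry1 in 1. Without the aged 14D cold library the counts past the threshold were 6, 5, 4, 4 and 2 in this order of classes. Without the age term they were 0, 0, 0, 1 and 0. With DESeq2 they were 4, 4, 0, 0 and 0, where DESeq2 gave no adjusted p to 10 of 10 members in Cd142+ fibroblasts and 8 of 10 in endothelial cells, among them all that passed with edgeR, so that it does not bear on those calls.

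**Figure D1:**
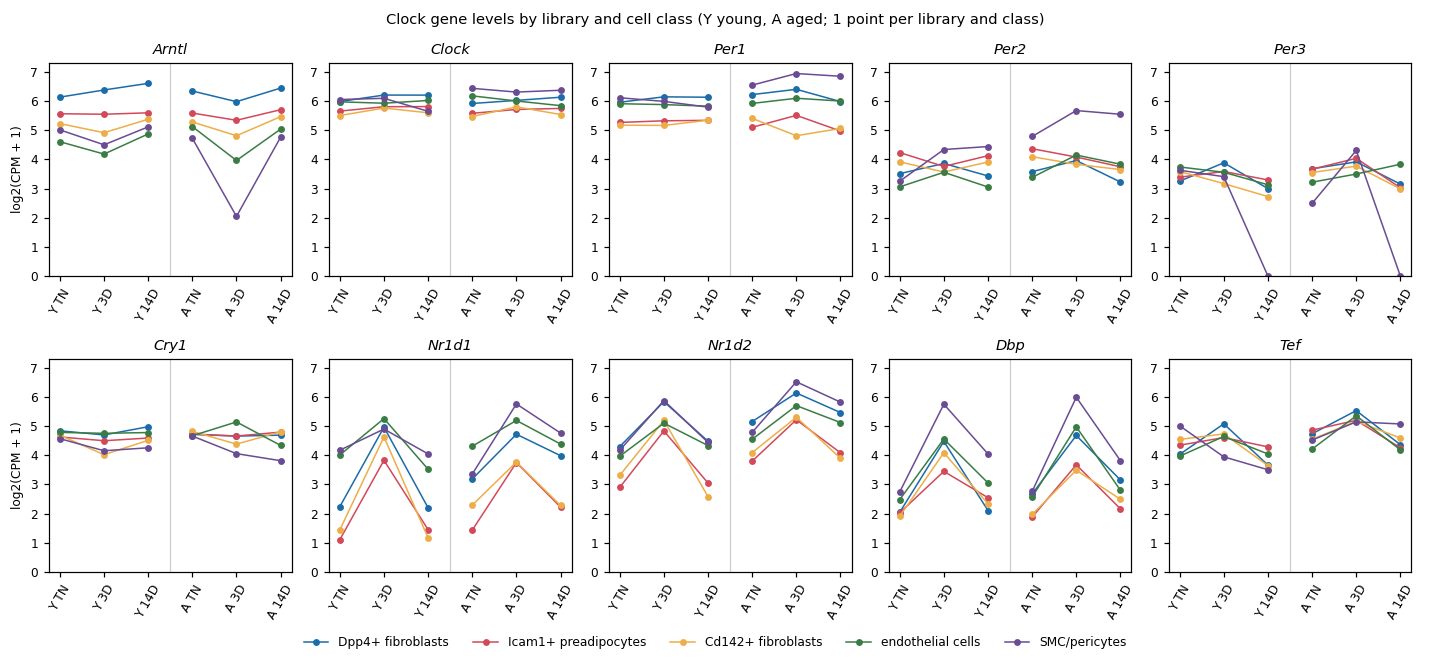
Level of each of the 10 clock genes by library, as log2(CPM + 1) in 5 cell classes, with young (Y) and aged (A) libraries in the 3 temperature groups. Each point is 1 library and class; Nr1d1, Nr1d2 and Dbp peak at 3D cold at both ages in every class.

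Nr1d1 (chromosome 11, 98767932 to 98775333 of GRCm38, minus strand) encodes REV-ERBα, the repressor of Arntl. In Dpp4+ fibroblasts it was at 3.71, 30.2 and 3.58 CPM in young TN, 3D cold and 14D cold and 8.10, 25.4 and 14.8 CPM in the aged libraries in this order. Both 3D cold values lay above the other 4, and the aged 14D cold value lay between them and the rest. These levels rest on 134 to 1045 UMIs per library, and the log2 fold change of 3D cold over TN was 2.41 (SE 0.41) with an adjusted p of 0.0147. In Icam1+ preadipocytes, where it was lowest, Nr1d1 was at 1.15, 13.2 and 1.73 CPM in young and 1.70, 12.5 and 3.67 CPM in aged libraries. The rise there was 3.19 (SE 0.26), adjusted p = 0.00393, and ranked 5 by size among the 13514 genes tested in that class. In Cd142+ fibroblasts the levels were 1.72, 23.7 and 1.25 CPM in young and 3.89, 12.6 and 3.85 CPM in aged libraries, a rise of 2.86 (SE 0.40), adjusted p = 3.58e-10, in which the low libraries held 4 to 8 UMIs. In endothelial cells Nr1d1 started higher, at 15.1, 37.2 and 10.5 CPM in young and 18.8, 35.6 and 19.9 CPM in aged libraries, and rose by 1.10 (SE 0.22), adjusted p = 0.0288. In SMC/pericytes it was at 17.0, 28.8 and 15.5 CPM in young and 9.23, 53.1 and 26.1 CPM in aged libraries, from 6 to 17 UMIs, and did not pass (adjusted p = 0.394). Without the young 3D cold library Nr1d1 no longer passed in Dpp4+ fibroblasts (1.39, adjusted p = 0.0699), Cd142+ fibroblasts (1.60, 0.496) or endothelial cells (0.82, 0.123), and without young TN it did not pass in Dpp4+ fibroblasts (2.13, 0.0616). With DESeq2 it did not pass in Dpp4+ fibroblasts (2.46, adjusted p = 0.0509), and with Leiden clusters it did not in endothelial cells (1.16, 0.0972). Nr1d1 overlaps Thra on the opposite strand.

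Nr1d2 (chromosome 14, 18204054 to 18239127, minus strand) encodes REV-ERBβ, which acts on the same elements. In Dpp4+ fibroblasts its level was 18.6, 56.2 and 21.3 CPM in young TN, 3D cold and 14D cold and 34.6, 69.2 and 43.1 CPM in the aged libraries in this order, and both 3D cold libraries lay above the other 4. The log2 fold change of 3D cold over TN was 1.31 (SE 0.15), adjusted p = 0.00254. It was 1.78 (SE 0.17) in Icam1+ preadipocytes (adjusted p = 0.0063), 1.66 (SE 0.23) in Cd142+ fibroblasts (1.16e-10) and 1.19 (SE 0.18) in endothelial cells (0.0164). With cells thinned to 2000 UMIs it did not pass in Cd142+ fibroblasts (1.55, adjusted p = 0.185) or endothelial cells (1.10, 0.257). In endothelial cells the groups overlapped by a narrow margin, since aged 14D cold (33.8 CPM) lay above young 3D cold (33.3). In SMC/pericytes the 3D cold libraries were again the highest within each age, at 57.6 and 90.6 CPM against 17.0 and 26.5 at TN, with an adjusted p of 0.0577 that passed without young TN (0.0161), young 14D cold (0.000268) or aged 14D cold (0.000183).

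Dbp (chromosome 7, 45705088 to 45710203, plus strand), the PAR bZIP factor often used as a marker of clock output, passed in all 5 classes. In Dpp4+ fibroblasts it was at 3.12, 21.2 and 3.30 CPM in young TN, 3D cold and 14D cold and 5.38, 24.6 and 7.89 CPM in the aged libraries in this order. In endothelial cells it was at 4.57, 22.5 and 7.29 CPM in young and 4.93, 30.4 and 5.96 CPM in aged libraries, and in SMC/pericytes at 5.68, 52.8 and 15.5 CPM in young and 5.77, 62.5 and 13.1 CPM in aged libraries. In every class both 3D cold libraries lay above all of the other 4. The log2 fold change of 3D cold over TN was 3.28 (SE 0.55) for SMC/pericytes (adjusted p = 0.0114), 2.50 (SE 0.21) for Dpp4+ fibroblasts (0.000778), 2.48 (SE 0.29) for endothelial cells (0.00192), 2.26 (SE 0.40) for Cd142+ fibroblasts (2.10e-05) and 1.91 (SE 0.19) for Icam1+ preadipocytes (0.00862). The SMC/pericyte change ranked 1 by size among the 5873 genes tested in that class, and it rests on 2 to 22 UMIs per library. After 14 days the fold changes over TN were 0.35 to 1.31, positive in all classes, with -0.098 in Dpp4+ fibroblasts once the aged 14D cold library was left out. Without the aged 3D cold library Dbp did not pass in SMC/pericytes (3.06, adjusted p = 0.358), and without the young 3D cold library it did not pass in Cd142+ fibroblasts (1.75, 0.58). With DESeq2 it did not pass in SMC/pericytes (3.34, adjusted p = 0.408), and with cells thinned to 2000 UMIs it did not in endothelial cells (2.21, 0.0728). Sphk2 overlaps Dbp on the opposite strand.

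Tef (chromosome 15, 81802421 to 81826863, plus strand), the PAR bZIP relative of Dbp with an E-box at both starts, passed in fewer classes. Its level in Dpp4+ fibroblasts was 15.3, 32.8 and 11.7 CPM in young TN, 3D cold and 14D cold and 25.6, 45.2 and 19.6 CPM in the aged libraries in this order, with both 3D cold libraries the highest, and rose by 0.96 (SE 0.09), adjusted p = 0.000453. In Cd142+ fibroblasts it was at 22.3, 25.5 and 11.5 CPM in young and 22.4, 34.9 and 23.1 CPM in aged libraries and passed with a log2 fold change of 0.39 (SE 0.21) for 3D cold and -0.52 (SE 0.24) for 14D cold, adjusted p = 0.0248. This call was lost without young 3D cold (0.41, adjusted p = 0.296), young 14D cold (0.38, 0.531) or aged 3D cold (0.38, 0.121), and with thinned cells (0.41, 0.903). In endothelial cells both 3D cold libraries were also the highest (24.0 and 39.9 CPM, compared with 14.6 to 17.5 in the others), with an adjusted p of 0.0549 that passed without any 1 of 5 libraries. In Icam1+ preadipocytes the adjusted p was 0.0982 and fell to between 0.000408 and 0.0331 without young TN, young 14D cold, aged TN or aged 14D cold, and in SMC/pericytes the 3D cold values of 14.4 and 34.4 CPM lay among the others.

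**Figure D2:**
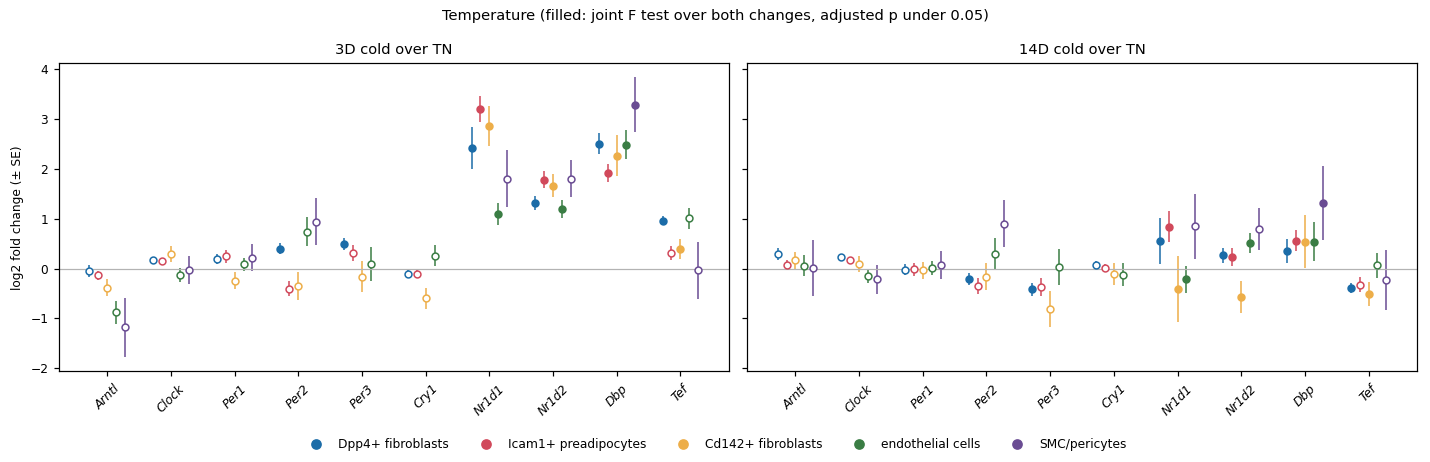
Log2 fold changes (± SE) of the 10 clock genes in 5 cell classes, 3D cold over TN on the left and 14D cold over TN on the right, from edgeR fits with age as a term (6 libraries per class). Filled points passed the joint test of both changes; those on the left are all above 0, the largest being Dbp in SMC/pericytes at 3.28 and Nr1d1 in Icam1+ preadipocytes at 3.19, and 16 of the 17 filled points of 14D cold lie nearer to 0 than those of 3D cold.

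The Per genes encode the repressors that close the loop, and over the classes tested their log2 fold changes of 3D cold over TN ran from -0.25 to 0.24 for Per1, -0.40 to 0.94 for Per2 and -0.16 to 0.49 for Per3. Per3 (chromosome 4, 151003652 to 151044665, minus strand), with a pair of D-boxes in its promoter window, was at 8.53, 13.7 and 6.99 CPM in young TN, 3D cold and 14D cold and 11.8, 14.1 and 7.89 CPM in the aged libraries in this order in Dpp4+ fibroblasts. Both 3D cold libraries were the highest and both 14D cold libraries the lowest, and the log2 fold changes over TN were 0.49 (SE 0.12) and -0.42 (SE 0.13), adjusted p = 0.00934. The call was lost without young 3D cold (0.33, adjusted p = 0.127) and with thinned cells (0.56, 0.0569). In Icam1+ preadipocytes the order within each age was the same (9.47, 11.0 and 8.81 CPM in young and 11.7, 15.4 and 7.15 CPM in aged libraries), but the test did not pass (adjusted p = 0.129). With no filter on low counts it did (0.32, edgeR adjusted p = 0.0103). The log2 fold change of 3D cold over TN was 0.24 without young TN and 0.32 without young 14D cold. In SMC/pericytes Per3 had 0 to 6 UMIs per library and was not tested; the 0 UMIs of the 14D cold libraries allow, at a limit of 3 counts, up to 7.75 CPM in young and 9.79 CPM in aged mice, counting error only. Per3 lies on the same strand as Camta1 and within its annotated span.

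Per2 (chromosome 1, 91415982 to 91459324, minus strand) had values that pointed in different directions in different classes. Its Dpp4+ fibroblast level was 10.4, 13.5 and 9.78 CPM in young TN, 3D cold and 14D cold and 10.9, 14.5 and 8.34 CPM in the aged libraries in this order, and rose in 3D cold by 0.40 (SE 0.12), adjusted p = 0.0299. In Icam1+ preadipocytes it was at 17.8, 12.5 and 16.4 CPM in young and 19.6, 15.9 and 12.4 CPM in aged libraries, lower in 3D cold than at TN at both ages, with a log2 fold change of -0.40 (SE 0.16) that did not pass (adjusted p = 0.251) but did without young 14D cold (adjusted p = 0.00654) or aged 14D cold (0.0382). The difference of the temperature effect between classes, tested as an interaction, did not pass for Per2 (adjusted p = 0.746). The rise in Dpp4+ fibroblasts was lost in 6 of 13 alternatives, among them without young TN (0.33, adjusted p = 0.0533), young 3D cold (0.50, 0.162) or aged 3D cold (0.32, 0.232).

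Per1 (chromosome 11, 69095217 to 69109960, plus strand), which also answers to acute signals such as glucocorticoids, had no change with temperature past the threshold in any class with all 6 libraries. It was at 61.1, 69.6 and 69.0 CPM in young TN, 3D cold and 14D cold and 73.5, 83.5 and 62.1 CPM in the aged libraries in this order in Dpp4+ fibroblasts, highest in 3D cold within each age, while young 3D cold lay below aged TN. The change there passed without young 14D cold (adjusted p = 0.00282), as did that in Icam1+ preadipocytes (0.0407). Cry1 (chromosome 10, 85131700 to 85185064, minus strand), a repressor that acts with the Per proteins, was at 27.6, 24.9 and 30.5 CPM in young TN, 3D cold and 14D cold and 25.3, 24.2 and 24.8 CPM in the aged libraries in this order in Dpp4+ fibroblasts, with a log2 fold change of -0.10 (SE 0.085) for 3D cold. In Cd142+ fibroblasts both 3D cold libraries (15.2 and 19.8 CPM) lay below the other 4 (21.8 to 27.2), and the change of -0.60 (SE 0.22) did not pass (adjusted p = 0.208).

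Arntl (chromosome 7, 113207465 to 113314126, plus strand), the activator whose mRNA runs opposite to Nr1d1 in most tissues, was lower in 3D cold in most classes without passing the test. In endothelial cells it was at 23.3, 17.1 and 28.3 CPM in young TN, 3D cold and 14D cold and 33.8, 14.6 and 31.8 CPM in the aged libraries in this order, and in Cd142+ fibroblasts at 36.4, 29.1 and 40.5 CPM in young and 37.9, 27.0 and 43.1 CPM in aged libraries. In Icam1+ preadipocytes it was at 46.3, 45.7 and 47.3 CPM in young and 47.0, 39.5 and 51.0 CPM in aged libraries. In these classes and in SMC/pericytes, where the aged 3D cold library held 1 UMI of Arntl, both 3D cold libraries were the lowest. In Dpp4+ fibroblasts, which had the most Arntl, the levels were 69.1, 82.1 and 96.3 CPM in young and 80.1, 62.0 and 86.0 CPM in aged libraries. There the aged 3D cold library was the lowest of all, but the young 3D cold library lay above 3 of the other 5. Its log2 fold change of 3D cold over TN was -0.051 (SE 0.12) for Dpp4+ and -0.38 (SE 0.17) for Cd142+ fibroblasts, -0.13 (SE 0.09) for Icam1+ preadipocytes, -0.88 (SE 0.23) for endothelial cells and -1.18 (SE 0.60) for SMC/pericytes, and none passed (adjusted p from 0.117 to 0.705). In endothelial cells Arntl did pass without young TN (-1.10, adjusted p = 0.000591), young 3D cold (-1.15, 0.0133) or aged TN (-0.56, 0.0273).

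Clock (chromosome 5, 76209868 to 76304792, minus strand) encodes the partner of BMAL1 and has little rhythm in many tissues. It was at 62.2, 72.7 and 72.6 CPM in young TN, 3D cold and 14D cold and 59.3, 63.9 and 69.0 CPM in the aged libraries in this order in Dpp4+ fibroblasts, and its log2 fold changes of 3D cold over TN lay between -0.13 and 0.29 over the 5 classes, with no adjusted p under 0.155.

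The ratio of opposite-phase genes within a library does not depend on its depth, and was used to place each library. For Nr1d1 over Arntl in Dpp4+ fibroblasts the log2 ratio of UMIs was -4.22, -1.44 and -4.75 in young TN, 3D cold and 14D cold and -3.31, -1.29 and -2.54 in the aged libraries. In endothelial cells it was -0.63, 1.12 and -1.43 in young and -0.85, 1.29 and -0.68 in aged mice, above 0 in 3D cold at both ages and below 0 in the other 4 libraries. For Dbp over Arntl in Icam1+ preadipocytes it was -3.91, -2.21 and -3.29 in young and -4.13, -1.75 and -3.87 in aged mice. Both 3D cold libraries had the highest ratios of Nr1d1, Nr1d2 and Dbp to Arntl in all 5 classes, with no overlap with the other 4. For Nr1d1 the lowest 3D cold ratio exceeded the highest of the others by 0.42 (SMC/pericytes) to 2.19 (Cd142+ fibroblasts) on the log2 scale, and for Dbp by 1.08 (Icam1+ preadipocytes) to 2.35 (endothelial cells). For Tef the same held in Dpp4+ fibroblasts, Cd142+ fibroblasts and endothelial cells. The ratio of Per1 to Arntl separated the 3D cold libraries in Icam1+ preadipocytes, by 0.033, and in endothelial cells, by 0.41, and that of Per2 in Dpp4+ fibroblasts and endothelial cells. The classes of a library share its mice and its hour of collection, so the 5 classes are not independent readings.

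**Figure D3:**
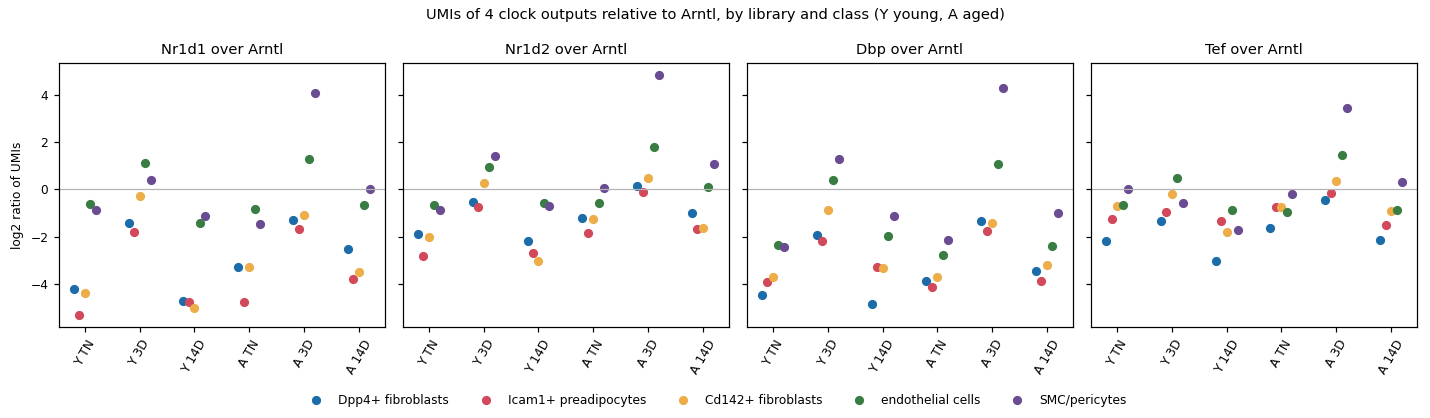
Log2 ratio of the UMIs of Nr1d1, Nr1d2, Dbp and Tef to those of Arntl by library, 1 point per class (Y young, A aged). For Nr1d1, Nr1d2 and Dbp both 3D cold libraries have the highest ratio in every class; in SMC/pericytes of aged 3D cold the ratio rests on 1 UMI of Arntl.

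With Nr1d1, Nr1d2, Dbp and Tef summed, the log2 ratio to Arntl was -0.76, 0.77 and -1.27 in young TN, 3D cold and 14D cold and -0.12, 1.41 and -0.0099 in the aged libraries in Dpp4+ fibroblasts. In Icam1+ preadipocytes it was -0.63, 0.69 and -0.55 in young TN, 3D cold and 14D cold and -0.053, 1.28 and -0.31 in the aged libraries, and in endothelial cells 1.07, 2.77 and 0.89 in young TN, 3D cold and 14D cold and 0.91, 3.43 and 1.27 in the aged libraries. Among the 4 libraries that were not 3D cold, young 14D cold had the lowest ratio in Dpp4+ fibroblasts, Cd142+ fibroblasts, endothelial cells and SMC/pericytes. In endothelial cells it was nearly level with aged TN (0.89 and 0.91). In SMC/pericytes it rests on 24 UMIs over 13 of Arntl, compared with 25 over 11 in young TN.

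The comparison across age asked whether clock genes differ between young and aged mice. Age cannot be told apart here from the hour of collection or the source of the mice, as neither is known per library. In Dpp4+ fibroblasts 3 of 10 members passed as higher in aged mice, Nr1d2, Dbp and Tef. There 16.9% of all genes passed and 8.31% were higher in aged mice. For Icam1+ preadipocytes 1 of 10 passed as higher, Nr1d2, against 12.4% of all genes. In Cd142+ fibroblasts, endothelial cells and SMC/pericytes 0 of 10, 10 and 8 passed edgeR's test, against 9.58%, 1.59% and 0.511% of all genes, with 2, 3 and 3 members at an unadjusted p under 0.05. DESeq2 called 0 in each of these classes, with no adjusted p for 7 of 10 members in Cd142+ fibroblasts and 8 of 8 in SMC/pericytes. Over the 5 classes 8.31%, 6.83%, 5.23%, 0.677% and 0.409% of all genes passed as higher in aged mice and 8.62%, 5.57%, 4.35%, 0.912% and 0.102% as lower, so outside Dpp4+ fibroblasts the share of members was at or near that of all genes, and the count is no result about the clock as a group. Members higher in aged mice at all 3 temperatures numbered 4, 2, 3, 4 and 4, against 25.2%, 24.8%, 20.4%, 18.2% and 16.5% of all genes, and lower ones 2, 1, 0, 0 and 1, against 25.2%, 25.9%, 21.2%, 18.4% and 15.9%. All 3 aged libraries lay above all 3 young ones for 0, 1, 0, 1 and 3 members, against 11.8%, 11.3%, 10.3%, 8.3% and 7.7%, and below them for 0 in each class, against 12.6%, 11.7%, 10.3%, 8.06% and 7.13%. Without the temperature term 0 members passed in any class, and without aged 14D cold 4 passed in Dpp4+ fibroblasts and 3 in Icam1+ preadipocytes.

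Nr1d2 was higher in aged mice at all 3 temperatures in each class. The classes share their libraries and hours of collection, so these are not independent readings. For Dpp4+ fibroblasts it was 32.0 ± 21 CPM in young and 49.0 ± 18 CPM in aged mice (SD, n = 3 libraries), with a log2 fold change of 0.71 (SE 0.12) and an adjusted p of 0.00329 from edgeR. In Icam1+ preadipocytes it was 13.7 ± 12 and 21.7 ± 13 CPM, a rise of 0.79 (SE 0.14), adjusted p = 0.012 from the same test. In endothelial cells it was 22.4 ± 9.7 and 35.7 ± 14 CPM with a log2 fold change of 0.67 (SE 0.16) and an edgeR adjusted p of 0.0516. It passed there without young TN (adjusted p = 0.0147) or aged TN (0.0145), and in Cd142+ fibroblasts without young 3D cold (0.0238) or aged 3D cold (0.0167). Within each age the 3D cold library was the highest, and the values of the ages overlapped. With either library of a temperature left out, the age difference rests on the same libraries of the other temperatures. The fits of such a pair are therefore not separate checks, here and below.

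Tef in Dpp4+ fibroblasts was 19.9 ± 11 CPM in young and 30.1 ± 13 CPM in aged mice (SD, n = 3), with a log2 fold change of 0.63 (SE 0.075) and an edgeR adjusted p of 0.000422. In Icam1+ preadipocytes its age difference passed only without young 14D cold (adjusted p = 0.000457) or aged 14D cold (0.000561) among the libraries, and that of Per3 likewise (0.0312 and 0.0334). Dbp in Dpp4+ fibroblasts rose by 0.64 (SE 0.17), with an edgeR adjusted p of 0.0314 that was lost without young TN (0.58, adjusted p = 0.0931) or aged TN (0.58, 0.0746) and with thinned cells (0.63, 0.066). In the other 4 classes the log2 fold change of Dbp lay between -0.34 and 0.22. Nr1d1 in Dpp4+ fibroblasts was higher in aged mice at TN (3.71 and 8.10 CPM) and 14D cold (3.58 and 14.8) but not at 3D cold (30.2 and 25.4), and did not pass (adjusted p = 0.168). Its log2 fold change was 1.63 without young and 1.63 without aged 3D cold, which both rest on the TN and 14D cold libraries and are not separate checks. Whether the age difference itself depends on temperature was not tested, since 1 library per age and temperature leaves no replicate.

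Arntl, Clock, Per1 and Cry1 had log2 fold changes of aged over young between -0.16 and 0.13 in Dpp4+ fibroblasts, none past the threshold with all 6 libraries. Arntl passed without aged TN (adjusted p = 0.0436), and Per1 without young 14D cold (0.00837) or aged 14D cold (0.0167). In SMC/pericytes Clock, Per1 and Per2 were higher in all 3 aged than in all 3 young libraries. Per2 had the largest of these differences, 16.1 ± 6.6 and 40.7 ± 12 CPM (SD, n = 3) from 3 to 23 UMIs, with a log2 fold change of 1.34 (SE 0.40) and an edgeR adjusted p of 0.17. The interaction of age with class passed for 0 of 10 members in edgeR, with 1 member at an unadjusted p under 0.05 and 2.72% of all genes past the threshold.

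**Figure D4:**
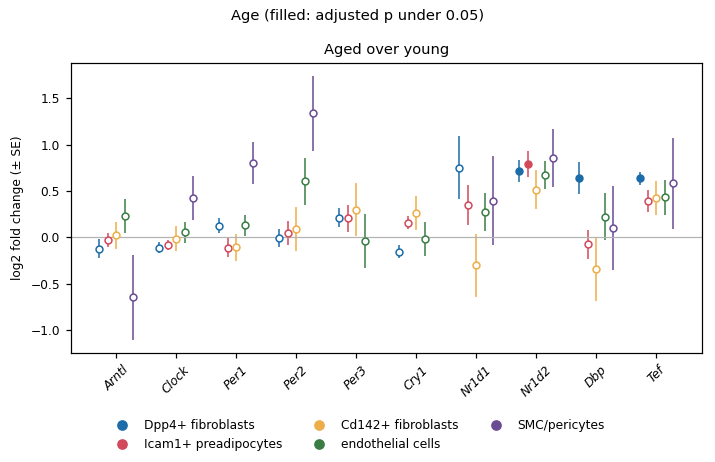
Log2 fold change (± SE) of aged over young for the 10 clock genes in 5 cell classes, from edgeR fits with temperature as a term (3 aged and 3 young libraries). Filled points passed an adjusted p of 0.05: Nr1d2, Dbp and Tef in Dpp4+ fibroblasts and Nr1d2 in Icam1+ preadipocytes.

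The interaction of temperature with class also passed for 0 of 10 members in edgeR, with 4 members at an unadjusted p under 0.05, 0.0709% of all genes past the threshold and 1 member, Nr1d2, by DESeq2.

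The levels of the clock genes also depended on the cell class. All 10 members differed between classes (edgeR with library as a block, adjusted p from 8.28e-16 for Arntl to 0.023 for Per3), as did 93.2% of all genes. Scaled over all classes together, Arntl was at 85.0 ± 13 CPM (SD, n = 6 libraries) in Dpp4+ fibroblasts, followed by Icam1+ preadipocytes at 51.2 ± 4.0, Cd142+ fibroblasts at 39.6 ± 7.0, endothelial cells at 22.3 ± 7.2 and SMC/pericytes at 18.6 ± 8.6. The first 4 stood in this order in all 6 libraries, and endothelial cells and SMC/pericytes did not differ beyond their spread. Per1 was at 74.8 ± 8.8 CPM in Dpp4+ fibroblasts, 68.0 ± 23 in SMC/pericytes and 54.3 ± 4.0 in endothelial cells. The values of SMC/pericytes overlapped with those of both other classes. The lowest Dpp4+ library (65.9 CPM) lay above the highest endothelial library (60.6 CPM). The means of these classes lay above those of Icam1+ preadipocytes (41.4 ± 5.6) and Cd142+ fibroblasts (38.9 ± 5.6). Nr1d1 ran from 20.5 ± 9.9 CPM in endothelial cells to 6.27 ± 6.2 in Icam1+ preadipocytes, and Nr1d2 from 43.4 ± 21 in Dpp4+ fibroblasts to 19.7 ± 13 in Icam1+ preadipocytes. Per2 was higher in Icam1+ preadipocytes (17.5 ± 3.2 CPM) than in Cd142+ fibroblasts (14.8 ± 2.0) in 6 of 6 libraries. Clock stood higher in Dpp4+ fibroblasts (71.4 ± 6.0 CPM) than in Icam1+ preadipocytes (57.3 ± 3.4) in all 6 libraries, and the other neighbours in its order did not differ beyond their spread. Cry1 at 28.1 ± 2.6, 26.8 ± 2.0, 25.1 ± 5.1 and 23.5 ± 4.3 CPM in the first 4 classes held no fixed order among them, and was lowest in SMC/pericytes at 14.6 ± 3.4.

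**Figure D5:**
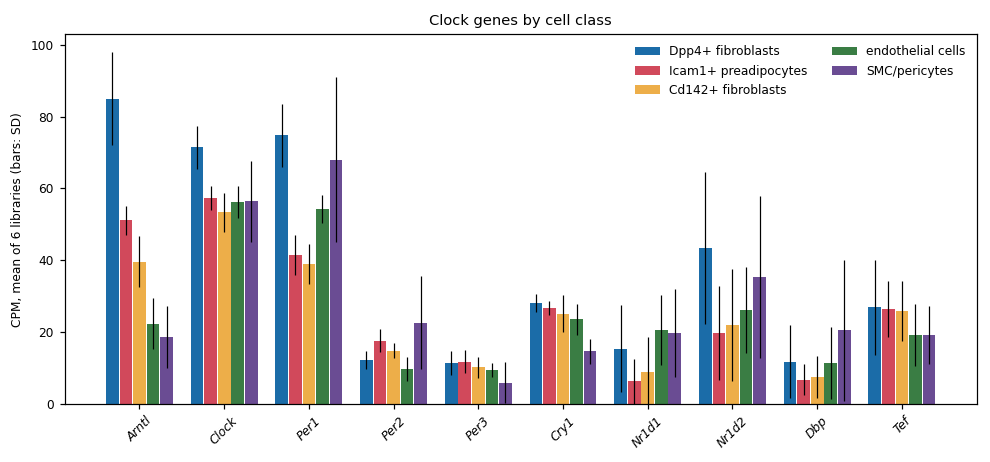
Mean CPM of each clock gene over 6 libraries in 5 cell classes, on 1 scale for all classes, with the SD as error bars (lower ends stop at 0). Arntl is highest at 85.0 CPM in Dpp4+ fibroblasts and lowest at 18.6 CPM in SMC/pericytes. The bars of Nr1d1, Nr1d2 and Dbp are wide, with high values in the 3D cold libraries that can lie above the bar.

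Of 16 other clock genes, 3 of the 15 tested passed for temperature in Dpp4+ fibroblasts, Cry2, Usp2 and Hlf, and 3 in Icam1+ preadipocytes, Bhlhe40, Usp2 and Hlf. In Cd142+ fibroblasts 2 of 14 passed, Usp2 and Hlf, and 0 of 13 and 0 of 9 passed in endothelial cells and SMC/pericytes, where 3 and 1 had an unadjusted p under 0.05. Of all genes 5.91%, 3.98%, 3.73%, 1.28% and 0.579% passed in these classes. Hlf, the remaining PAR bZIP factor beside Dbp and Tef, was at 3.79, 9.37 and 3.63 CPM in young TN, 3D cold and 14D cold and 5.93, 11.6 and 5.09 CPM in the aged libraries in this order in Dpp4+ fibroblasts, with the 3D cold libraries the highest and a log2 fold change of 1.15 (SE 0.13), adjusted p = 0.00167. It rose by 0.48 (SE 0.087) in Icam1+ preadipocytes and 0.75 (SE 0.26) in Cd142+ fibroblasts. Usp2, a deubiquitinase under clock control, was at 76.3, 144 and 124 CPM in young and 103, 184 and 169.8 CPM in aged libraries in Dpp4+ fibroblasts, and its 14D cold values stayed above TN, with log2 fold changes of 0.88 (SE 0.07) and 0.71 (SE 0.07). Npas2, a relative of Clock that is repressed through ROREs, was at 13.5, 9.06 and 10.8 CPM in young and 11.2, 7.54 and 10.4 CPM in aged libraries in Icam1+ preadipocytes, lowest in the 3D cold libraries at both ages, and did not pass. For age, 7 of 15 passed in Dpp4+ fibroblasts (16.9% of all genes), 4 of 15 in Icam1+ preadipocytes (12.4%) and 2 of 14 in Cd142+ fibroblasts (9.58%). In endothelial cells 0 of 13 and in SMC/pericytes 0 of 9 passed for age in edgeR, against 1.59% and 0.511% of all genes, with 2 and 0 at an unadjusted p under 0.05. Rorb, encoding an activator at ROREs, rose with age by 0.44 (SE 0.061) in Dpp4+ fibroblasts, 0.89 (SE 0.072) in Icam1+ preadipocytes and 1.70 (SE 0.48) in Cd142+ fibroblasts. It had too few counts to be tested in endothelial cells and SMC/pericytes. Cry2 rose with age by 0.41 (SE 0.059) in Dpp4+ fibroblasts.

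Likeness was measured as Pearson's r over the 30 sums of log2(CPM + 1) with the class mean taken off, which share libraries, among 5632 genes with enough counts, and is a description. The genes most like Dbp were Tspan4 (r = 0.87), Angptl2 (0.81), Rbm3 (0.79), Klf9 (0.79) and Por (0.76). Among the members, Nr1d1 (0.83) and Nr1d2 (0.79) were nearest, Tef followed at 0.49, and Arntl was opposite at -0.62. Klf9, a transcription factor that answers to glucocorticoids and the clock, was at 584, 772 and 619.5 CPM in young TN, 3D cold and 14D cold and 633, 804 and 652 CPM in the aged libraries in this order in Icam1+ preadipocytes, so its 3D cold values were the highest at both ages by a much smaller fold than those of Dbp. The genes most like Arntl were Tcea3 (0.86), Dmac1 (0.84), Uba6 (0.83), Chpf2 (0.82) and 2900026A02Rik (0.81). Among the other clock genes Hlf was farthest from Arntl, at -0.76.

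Some gene lists that could move with these genes did so in part, and their part in the result was not tested. The cold-inducible RNA-binding proteins Rbm3 and Cirbp, summed, were in Dpp4+ fibroblasts at 225 and 281 CPM in young and aged TN, 354 and 388 CPM in 3D cold and 254 and 317 CPM in 14D cold, and both passed for temperature. In endothelial cells both also passed, in Icam1+ preadipocytes Cirbp did, and in the other classes 0 of 2 did in edgeR. Of 8 glucocorticoid-responsive genes, 3 passed in Dpp4+ fibroblasts (5.91% of all genes passed there), 4 in Cd142+ fibroblasts (3.73%), 1 in Icam1+ preadipocytes (3.98%) and 1 in endothelial cells (1.28%), Zbtb16 being among them in each. Zbtb16 was at 130.2, 186 and 189 CPM in young TN, 3D cold and 14D cold and 97.8, 141 and 133 CPM in the aged libraries in this order in Dpp4+ fibroblasts, and at both ages 3D cold and 14D cold lay above TN. The others that passed were Tsc22d3 and Sgk1 in Dpp4+ fibroblasts and Sgk1, Mt1 and Mt2 in Cd142+ fibroblasts. Of those that passed, 2 were higher and 1 lower in 3D cold in Dpp4+ fibroblasts. In Cd142+ fibroblasts 3 were higher and 1 lower, and in Icam1+ preadipocytes and endothelial cells Zbtb16 was higher. Fkbp5, Errfi1 and Klf9 did not pass for temperature in any class. The summed level of the list in Icam1+ preadipocytes was 10871 and 13228 CPM in young and aged 3D cold and 7839 to 9936 CPM in the other 4 libraries.

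Of 10 dissociation and immediate early genes, 1 passed in Dpp4+ fibroblasts, Ier2, which was lower in 3D cold, with summed levels of 17357 to 23252 CPM over the libraries, and 0 of 10 in each of the other 4 classes in edgeR. Fibroblast markers summed to 38082 to 58955 CPM in Dpp4+ fibroblasts, where 6 of 10 passed, all 6 lower in 3D cold. Markers of other cell types were summed in Dpp4+ fibroblasts to 168 to 226 CPM for endothelial cells, 82.3 to 152 CPM for SMC/pericytes, 4.48 to 8.75 CPM for adipocytes and 2.84 to 11.2 CPM for immune cells, of whose 10 markers up to 3 were at 0 in a library. For temperature 4 of 10 endothelial markers passed there, all lower in 3D cold. Of the markers tested, 1 of 9 for SMC/pericytes and 1 of 4 for immune cells passed as higher, and 0 of 5 for adipocytes passed. Red blood cell RNA was uneven between libraries. Over 5 genes it summed in Dpp4+ fibroblasts to 143 and 464 CPM in young and aged 3D cold, 4.02 and 122 CPM in TN and 3.66 and 243 CPM in 14D cold. Within each age 3D cold was the highest, while the temperatures overlapped between ages. There 2 of 5 passed for temperature, both higher in 3D cold, and 5 of 5 for age. In endothelial cells 1 of 4 tested passed for temperature as higher, in Cd142+ fibroblasts and SMC/pericytes 3 of 3 as lower, and in Icam1+ preadipocytes 0 of 5 passed. The bearing of this RNA on the members was not tested. In endothelial cells adipocyte markers summed to 307 and 522 CPM in 3D cold and 185 to 307 CPM in the other 4, with young 3D cold and aged 14D cold nearly level, and 3 of 6 passed for temperature.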

How the data were processed

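The deposited files hold UMI counts per gene and cell, which the authors made with Cell Ranger (3.1.0 per the file headers) against the mouse genome mm10, 1 matrix per library. The authors' later filters and clusters were not used here. Barcodes with more than 200 genes and within 3 median absolute deviations of their library in genes, UMIs and mitochondrial share were kept. Cells were put into classes by how many of 10 markers they held, with limits set after the data were seen, so they may differ from the cells of the study, and cells with markers of 2 or more lineages were left out, which served in place of a doublet caller. UMIs were summed per library and class and tested with edgeR 4.0.16 (R 4.3.3; glmQLFTest, TMM, filterByExpr, age and temperature as terms, Benjamini-Hochberg over all genes tested, threshold 0.05). Temperature was tested on both of its coefficients together, and classes with library as a block. With 1 library per age and temperature, and nothing to say that libraries came from several mice, no group has a replicate. The 2 residual degrees of freedom per class hold the departure of these libraries from added effects of age and temperature. The p-values set a change against that departure, which edgeR draws toward a trend over all genes. They do not set it against a spread between mice or between libraries of a group. A very small p-value therefore rests in part on other genes and not on the gene alone. The tests were checked on simulated data in which 200 genes were changed 2-fold. For temperature they recovered 39% (SMC/pericytes) to 88% (Dpp4+ fibroblasts) of these, and for age 39.5% to 87.5% in the same classes. Recovery was 53.5% for age by class and 36% for temperature by class, so changes can be missed there and in SMC/pericytes. False calls made up 0% to 8.02% of the genes called. Alternatives were DESeq2 1.42.0, other scaling, no filter on low counts, cells thinned to 2000 UMIs, fixed cell limits, Leiden clusters, a term left out and each library left out. Intervals of summed counts are exact Poisson intervals and cover counting error only. The members and gene lists were chosen with earlier results of these data known. All members and the 5 genes most like Dbp or Arntl, among genes with at least 20 CPM in at least 3 classes, were named. Of 16 other clock genes and the glucocorticoid-responsive, cold-inducible and immediate early lists, those that passed for temperature were named. Gene positions are those of GENCODE M21 on GRCm38.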

Additional observations from a re-analysis of the deposited data

Results flagged for a closer look

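Cells kept by the quality filter but placed in none of the 5 classes, 564 in young and 960 in aged 3D cold, were not part of any comparison, and 4 members were higher there in the 3D cold libraries than in both TN libraries, with exact Poisson 95% intervals that did not overlap. Nr1d1, the gene of REV-ERBα, was at 33.0 CPM in young and 22.3 CPM in aged 3D cold, against 7.24 and 10.2 CPM at TN. Nr1d2, the gene of REV-ERBβ, was at 43.6 and 54.3 CPM, against 15.6 and 23.7 CPM. Dbp was at 20.9 and 26.2 CPM against 6.14 and 4.80 CPM, and Tef at 34.7 and 41.7 CPM against 17.5 and 25.1 CPM. These cells include those with markers of 2 or more lineages, so they are no further cell type, and the intervals cover counting error only.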

How the results depend on the processing

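The 17 changes with temperature that passed kept the sign of their 3D cold value in 211 of 211 alternatives and passed in 172 (10 more gave no adjusted p, 7 of them with DESeq2 and 3 with thinned cells), and the 4 age differences kept theirs in 52 of 52 and passed in 45. The cause of the changes below was not tested. No paired analysis was possible because each group holds 1 library. Counts of 5 follow the order Dpp4+, Icam1+, Cd142+, endothelial, SMC/pericyte.

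Members passing for temperature numbered 6, 3, 4, 3 and 1. Without the age term they were 0, 0, 0, 1 and 0. With no filter on low counts they were 5 for Icam1+, 5 for endothelial and 2 for SMC/pericyte sums. With DESeq2 they were 0 in the last 3 classes, but in Cd142+ fibroblasts 10 of 10 and in endothelial cells 8 of 10 members had no adjusted p, so these are no lost calls. With cells thinned to 2000 UMIs they were 0, 1 and 0 there, where Nr1d1 and Dbp in Cd142+ fibroblasts and Dbp in SMC/pericytes had too few counts to be tested. In SMC/pericytes other scaling (RLE), fixed cell limits and Leiden clusters each gave 2. Leaving out each library gave 3 to 7, 3 to 7, 1 to 4, 3 to 5 and 0 to 2, the lowest without young 3D cold in Dpp4+ and Cd142+ fibroblasts and without aged 3D cold in SMC/pericytes.

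Members passing for age numbered 3, 1, 0, 0 and 0. Without the temperature term they were 0 in each class. In Icam1+ preadipocytes no filter and Leiden clusters each gave 2, and in endothelial cells no filter gave 1. Leaving out each library gave 2 to 4, 1 to 3, 0 to 1, 0 to 1 and 0 to 0, with 3 in Icam1+ preadipocytes without either 14D cold library. For age by class no filter gave 2 and leaving out each library 0 to 1. For temperature by class DESeq2 gave 1, no filter 4 and leaving out each library 0 to 0. The 10 members that differed between classes became 8 to 10.

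In all, 10 changes turned sign in at least 1 alternative. With each library left out, the 3D cold change of Arntl in Dpp4+ fibroblasts ran from -0.31 to 0.19, the last without aged TN. The other 9 were changes of 14D cold over TN. In Dpp4+ fibroblasts Nr1d1 ran from -0.49 to 1.40 and Dbp from -0.098 to 0.79, the lowest without aged 14D cold. In Icam1+ preadipocytes Nr1d2 ran from -0.048, without aged 14D cold, to 0.45, and Dbp was at -0.13 with thinned cells. In Cd142+ fibroblasts Nr1d1 ran from -1.36 to 0.89, with 0.38 without aged TN, and was at 0.32 with Leiden clusters, and Nr1d2 ran from -1.11 to 0.037, both highest without young 14D cold. In endothelial cells Arntl ran from -0.19, without young TN, to 0.35. Nr1d1 there ran from -0.67 to 0.15, the last without young 14D cold, and Tef from -0.12, without young 14D cold, to 0.26, with -0.092 without aged TN.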
